A study of Drosophila melanogaster with 19 samples.

Results

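To ask which genes change late in the life of fly photoreceptors, nuclear RNA at day 60 (D60) was compared with nuclear RNA at day 30 (D30) after eclosion. The comparison used 6 of the 19 libraries of the series, 3 at each age, and 4068 of the 13929 genes counted, namely those with enough counts to be tested. Both groups were male *Drosophila melanogaster* in a w background that carried a UAS-GFP-Msp300KASH insertion at attP2 and the rh1-GAL4 driver insertion on a chromosome with the ry[506] allele, kept at 25 °C under a light:dark cycle of 12:12 hours and collected at Zeitgeber time (ZT) 6, so that the groups differed in age alone by their labels. The driver uses the promoter of Rhodopsin 1, which is active in the outer photoreceptors, and places a green fluorescent protein with the KASH domain of Msp300 on the nuclear membrane, by which the nuclei were pulled from heads. Each library was made from a separate pool of flies, and the pool is the replicate, so that p-values measure the spread between pools. Libraries at D40 and D50 from the same count table are given for the named genes as a description. Clock and ribosomal protein genes were left out of the lists described here.

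Outer photoreceptors detect light with Rhodopsin 1, which sits in a stack of microvilli called the rhabdomere. Light-activated rhodopsin signals through a G protein and phospholipase C to the TRP and TRPL channels, calcium entry then shuts the response off, and the cell releases histamine onto neurons of the brain. These cells are born before adulthood and do not divide again. Nuclear RNA holds newly made transcripts together with those kept in the nucleus, and is not a measure of protein.

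The 6 libraries held 629634 to 803477 counts each, and the 3 D60 libraries agreed almost to sampling noise. A chi-square of the counts of 2 libraries divided by its degrees of freedom, which is 1 under sampling noise alone, was 1.17 to 1.22 between D60 libraries and 1.45 between D30 replicates 2 and 3, but 8.11 and 8.89 where D30 replicate 1 was set against either of them. D30 replicate 1 also had 4.50% of its counts in *Ank2*, against 7.55% to 9.55% in the other 5 libraries, and it stood apart for *w*, the marker gene of the tag transgene, with 5504 CPM (counts scaled to library size) against 1314 and 1279 in the other D30 libraries and 2725 to 2884 at D60. *apolpp*, a lipoprotein gene of the fat body, was at 807.5 CPM in D30 replicate 1, 333.6 and 319.0 CPM in the other D30 libraries and 588.9 to 651.7 CPM at D60. The part of this library's composition in the results was not tested beyond leaving it out. Without it, 939 of the 960 genes called below were called again, all in the same direction, and 1492 were called in all.

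The nuclei carried the RNA of outer photoreceptors. All 18 markers of these cells were tested, 4 rose and 1 fell, and their summed level was 83935 to 88899 CPM at D30 and 90765 to 96954 CPM at D60. The glial markers summed to 301.7 to 310.2 CPM at D30 and 578.8 to 624.0 CPM at D60, and of 10 markers 7 were tested and 1 rose, *Eaat1*, a glutamate transporter, from 62.1, 42.0 and 27.9 CPM to 315.4, 318.2 and 352.7 CPM (log2 fold change 2.92 ± 0.21 (SE), adjusted p = 2.66e-06). None of the other tested glial markers passed the test, and *alrm* and *wrapper* had under 5 counts per library on average. Markers of other neurons summed to 356.7 to 454.3 CPM and then 981.1 to 1089.6 CPM, and of 7 tested the 1 that rose was *ple*, tyrosine hydroxylase of dopamine synthesis. *ple* alone went from a mean of 152.3 CPM to 806.1 CPM, more than the sum rose, and *Eaat1* made up most of the glial rise. Neither sum is therefore read as a level of its cell type. The part of other cell types in the results was not tested, and in such bulk libraries fewer cells of a type and less RNA per cell cannot be told apart. Of the muscle markers *bt*, a giant muscle protein, fell from 30.3, 64.9 and 39.7 CPM to 19.3, 19.8 and 23.4 CPM (-1.11 ± 0.32, adjusted p = 0.027), and the flight muscle actin *Act88F* had no count. *Fbp1*, *He* and *Fst*, of fat body and hemocytes, had no count either. None of the 2 tested markers of that list passed the test, although *apolpp* was higher by 0.96 on the log2 scale without D30 replicate 1. The cone and pigment cell markers, *w* among them, summed to 5580.5, 1442.5 and 1434.9 CPM at D30 and 2819.4 to 2969.8 CPM at D60, and none of 3 tested passed.

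At D60, 960 of 4068 genes (23.6%) differed from D30 at an adjusted p-value under 0.05, of which 526 (12.9%) were higher and 434 (10.7%) were lower. The quasi-likelihood test of edgeR was used throughout, with p-values adjusted over all genes tested, and log2 fold changes are given with their standard error for 3 libraries against 3. Among the genes called, rises were larger than falls: the median change was 1.11 on the log2 scale for those higher and -0.67 for those lower. Over all genes tested the median was -0.01 and the quartile bounds were -0.327 and 0.364. Genes called lower had a median level of 224.8 CPM against 72.4 CPM for those called higher, and smaller changes can pass the test at a higher level. More than 4-fold changes were seen in 99 genes called higher and 4 called lower. The D30 and D60 levels were apart for all 526 genes called higher and for 425 of the 434 called lower, and for 1628 (40%) of all 4068 genes tested, called or not. Leaving out 1 library at a time left 612 to 1492 calls, the most without D30 replicate 1 and the fewest without D60 replicate 2. In all 6 of these fits the call was kept by 56.1% of the genes called higher and 46.3% of those called lower. Of the genes tested, 309 had under 10 counts on average at D30 and at least 10 at D60, and 133 of them are among the rises. The reverse held for 144 genes, and 21 of them are among the falls. Such genes entered the test through the age at which they were high, so they are named as they occur below. The filter asked for about 10 counts in at least 3 libraries, so genes low in only part of the D30 libraries entered through D60 too. Among them are *Mettl3*, *cutlet*, *CG1648*, *ds*, *Shawl*, *Ldh*, *LpR1*, *RPA1*, *rad50*, *COX7A* and *ND-MLRQ*, and in reverse *nAChRalpha4* entered through D30. The direction of all these genes was favoured by the filter, and a list that holds them cannot be read from its count or median. Counts in a list are to be read beside the 12.9% of all tested genes that rose and the 10.7% that fell. These shares depend on length and level: 24.4% of genes in the quintile with the most exonic bases fell, and 29.0% in that with the highest CPM. Median exonic length was 5760 bases in the synaptic list, 7350 in calcium, 8698 in potassium and 6650 in adhesion genes, against 3409 over all tested. Falls in such lists are to be read beside the higher shares as well.

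**Figure D1:**
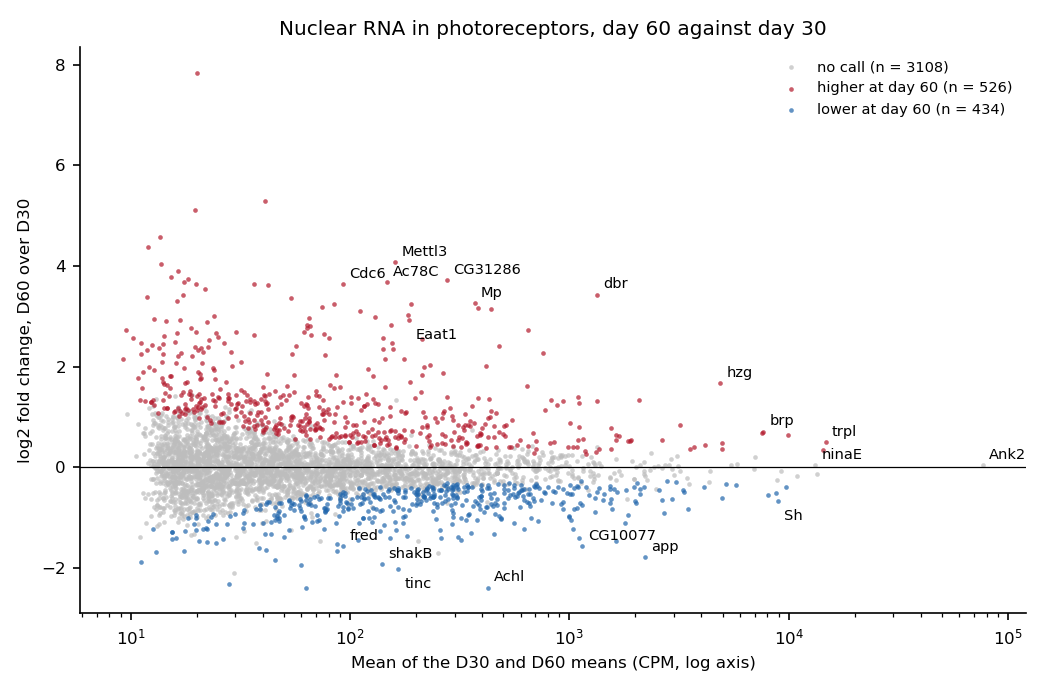
Log2 fold change of D60 over D30 against the mean level in CPM (log axis) for the 4068 genes tested, with genes called higher in red, called lower in blue and the others in grey. The 526 red points reach much further from 0 than the 434 blue points, and *ninaE* and *Ank2* lie near 0.

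The largest rise among genes with at least 50 counts on average was in *Mettl3*, the catalytic subunit of the complex that writes N6-methyladenosine on RNA (chromosome 3R, 24032157 to 24034257 in dm6 coordinates). Its level was 7.96, 21.6 and 23.5 CPM at D30 and 309.5, 307.7 and 292.0 CPM at D60, a change of 4.07 ± 0.22 (adjusted p = 6.35e-07). Every D60 library was thus far above every D30 library. *Mettl3* passed the filter through D60, since its lowest D30 library, at 7.96 CPM, was below the count minimum. None of the 6 other tested genes of that pathway passed the test, among them the writer subunits *fl(2)d* (-0.22), *vir* (0.29), *nito* (-0.18) and *Flacc* (-0.14) and the readers *Ythdc1* (-0.29) and *Ythdf* (-0.05).

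*Ac78C*, an adenylate cyclase, rose from 14.3, 28.0 and 20.6 CPM to 269.3, 274.7 and 276.9 CPM (3.68 ± 0.19, adjusted p = 4.5e-07). *dbr*, or debra, had the most counts of the 12 genes with the largest rises and went from 114.7, 261.0 and 307.3 CPM to 2459, 2517 and 2353 CPM (3.43 ± 0.25, adjusted p = 3.23e-06). Its lowest D30 library was replicate 1, and the change was 3.12 without it. *Mp*, a collagen of the multiplexin type, moved from 51.0, 92.9 and 63.2 CPM to 717.1, 644.4 and 651.6 CPM (3.27 ± 0.17), and *Rgk1*, of a family of small GTPases that bind calcium channels in mammals, from 70.1, 112.0 and 83.8 CPM to 769.2, 808.1 and 783.8 CPM (3.15 ± 0.15). In each of these genes the D60 libraries agreed closely with each other, while the D30 libraries spread more in relation to their low level.

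*Cdc6*, which loads the replicative helicase onto origins, went from 9.56, 16.6 and 14.7 CPM to 165.1, 192.8 and 158.4 CPM (3.64 ± 0.21, adjusted p = 8.33e-07), with under 10 counts on average at D30. *Cks30A*, a subunit of cyclin-dependent kinase complexes, went from 31.9, 15.3 and 23.5 CPM to 186.0, 198.1 and 212.1 CPM (3.11 ± 0.21), and *cutlet*, a relative of the clamp loaders that act at replication forks, from 6.37, 22.9 and 17.6 CPM to 172.6, 140.0 and 148.8 CPM (3.25 ± 0.27). *tej*, or tejas, a germline gene that acts in silencing of transposons by piRNAs, rose from 22.3, 36.9 and 48.5 CPM to 364.5, 348.6 and 316.8 CPM (3.25 ± 0.20). The remaining 3 of the 12 were *CG31286* (3.72), *CG1648* (3.19) and *Aldh*, a mitochondrial aldehyde dehydrogenase (3.16 ± 0.14, adjusted p = 3.09e-07), which went from 60.5, 87.9 and 83.8 CPM to 668.0, 747.4 and 658.5 CPM. *Aldh* overlaps *Shawl*, a potassium channel gene on the opposite strand, which rose as well (2.81), and the counts do not tell which gene the shared bases belong to.

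The largest fall among genes with at least 50 counts on average and no overlap between ages was in *Achl*, or achilles. It had 917.3, 585.7 and 645.4 CPM at D30 and 135.4, 130.7 and 137.8 CPM at D60 (-2.39 ± 0.17, adjusted p = 3.15e-06). *app*, a palmitoyltransferase of planar cell polarity, had the most counts of the 12 genes with the largest falls and went from 4619, 2891 and 2785 CPM to 965.6, 1007.5 and 965.7 CPM (-1.79 ± 0.17). Both were highest in D30 replicate 1 and fell without it too, by 2.18 and 1.53 on the log2 scale. *tinc*, or tincar, a membrane protein of the developing eye, was lowest in that library among the D30 libraries, with 156.1 CPM against 318.3 and 326.4 CPM, and stood at 62.1 to 68.4 CPM at D60 (-2.02 ± 0.25, adjusted p = 0.000172).

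Junction and adhesion genes made up 3 of these 12 falls, a grouping made after the values were seen. Their lists went both ways: 12 of 71 tested adhesion genes rose and 13 fell, and 3 of 20 rhabdomere and junction genes rose and 4 fell. *shakB*, a gap junction innexin, went from 200.7, 227.9 and 239.6 CPM to 50.6, 58.1 and 64.7 CPM (-1.93 ± 0.15, adjusted p = 4.89e-06), and *pyd*, the fly ZO-1 of cell junctions, from 2929, 2140 and 2158 CPM to 801.9, 940.2 and 863.7 CPM (-1.46 ± 0.13). *fred*, a cell adhesion molecule related to Echinoid, was set partly by D30 replicate 1, with 224.6 CPM there and 104.4 and 91.1 CPM in the other D30 libraries against 41.3 to 49.1 CPM at D60 (-1.56 ± 0.33, and -1.07 without that library). *t*, or tan, the enzyme that frees histamine from carcinine in photoreceptors, fell from 551.0, 435.4 and 427.8 CPM to 165.1, 190.1 and 161.2 CPM (-1.44 ± 0.14, adjusted p = 2.22e-05). *mim*, a membrane-bending protein, fell from 1631, 1504 and 1697 CPM to 566.9, 594.2 and 647.4 CPM (-1.40 ± 0.10). The others were *CG10077* (-1.57), *CG41378* (-1.52), *CG44838* (-1.44) and *SLC5A11*, a sodium-coupled solute transporter (-1.41).

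Reads on the opposite strand bear on 2 of these genes. *CG15450*, within *shakB* on the opposite strand, went from 1.59, 1.27 and 1.47 CPM to 23.8, 21.1 and 33.1 CPM, and *ppk25* and *CheB42a*, opposite to *mim*, from at most 1.47 and 4.41 CPM to at least 23.4 and 29.8 CPM. *CG15450*, *ppk25* and *CheB42a* had under 10 counts on average at D30 and entered the test through D60. *CheB42b* (-1.88) and *CheB42c* (-1.22), which overlap *mim* on its own strand, had under 10 counts on average at D60 and entered through D30. The directions of these overlapping genes were thus set by the filter and are not read. The strand setting of the counts is not known, so the size of the change of *shakB* and of *mim* is uncertain.

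**Figure D2:**
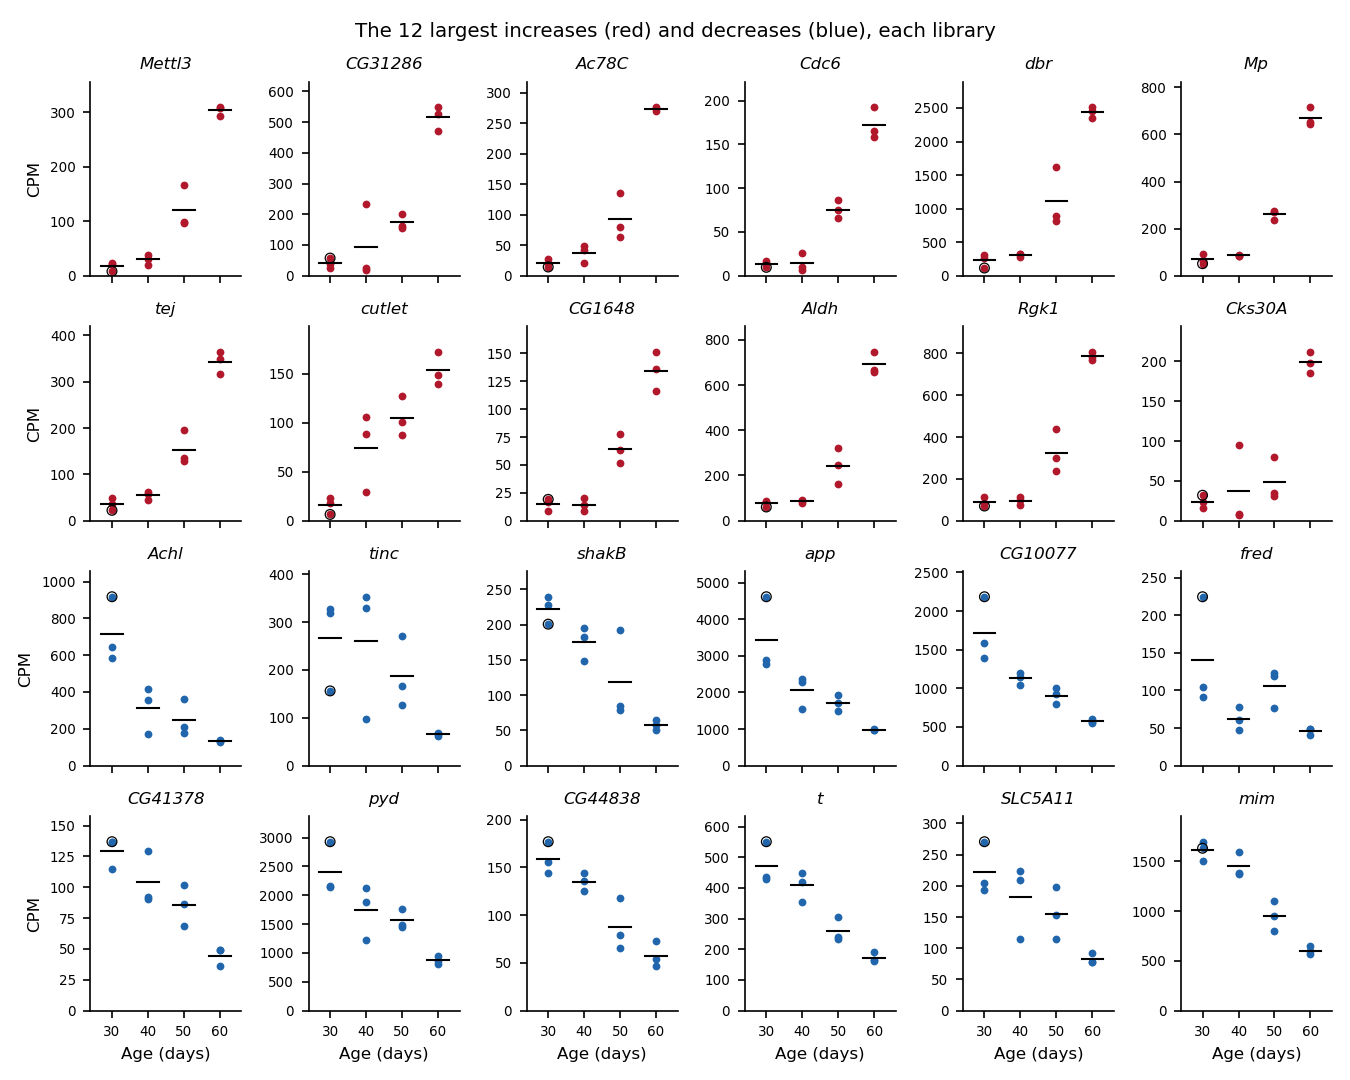
Level in CPM of the 12 genes with the largest rises (red) and the 12 with the largest falls (blue) in each library at D30, D40, D50 and D60, with a bar at the mean of 3 libraries and D30 replicate 1 circled. In all 24 genes the D30 and D60 points do not overlap, and in *CG31286* and *Cks30A* a single D40 library lies far above the other D40 libraries.

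Phototransduction genes moved in both directions. Of the 20 tested, 4 rose and 6 fell, with a median log2 fold change of -0.19 (7 and 12 without D30 replicate 1, and 4 and 4 without any D60 library). The risers were both light-gated channels, *trp* and *trpl*, the G protein subunit *Ggamma30A* and *Calx*, the sodium/calcium exchanger (0.49 ± 0.10). *trpl* rose from 12996, 12583 and 11272 CPM to 16622, 18275 and 16803 CPM (0.50 ± 0.09, adjusted p = 0.00152), although *CG1690* on its opposite strand rose too, and *trp* rose from 4351, 6842 and 6419 CPM to 9007, 9872 and 9062 CPM (0.68 ± 0.14, adjusted p = 0.00439). *Ggamma30A* rose from 8272, 7374 and 7877 CPM to 12532, 11969 and 11885 CPM (0.64 ± 0.08), while its partner *Gbeta76C* fell (-0.35 ± 0.11, adjusted p = 0.041) and *Galphaq* had a change of 0.14 ± 0.10 that did not pass the test.

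Of the 6 phototransduction genes that fell, *inaE* changed most. *inaE*, a diacylglycerol lipase needed for channel opening, fell from 417.3, 398.5 and 385.2 CPM to 191.9, 175.6 and 176.3 CPM (-1.13 ± 0.11, adjusted p = 2.63e-05), and the groups were far apart. Calmodulin, *Cam*, fell by 0.89 on the log2 scale, from 2090, 1439 and 1605 CPM to 946.3, 929.6 and 872.0 CPM. The kinase *Gprk1* (-0.60), the rhodopsin phosphatase *rdgC* (-0.41) and the rhabdomere protein *rtp* (-0.58) also fell.

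Rhodopsin itself is an example of how far D30 replicate 1 decides a value. *ninaE* was at 20335 CPM in that library, at 9693 and 8989 CPM in the other D30 libraries and at 12504 to 14045 CPM at D60, so that its change was 0.05 ± 0.25 (adjusted p = 0.917) with all libraries and 0.52 without replicate 1, where it was called higher. *Arr2*, the main arrestin, did likewise, with 7587 CPM against 4501 and 4125 CPM at D30 and 5222 to 5962 CPM at D60 (0.05, and 0.37 without that library). The scaffold *inaD* was the reverse, at 1019 CPM in replicate 1, 1706 and 1530 CPM in the others and 973.9 to 1065 CPM at D60 (-0.45, adjusted p = 0.0536, and -0.65 without it). For *norpA*, the phospholipase C, the change was -0.14 ± 0.12 (adjusted p = 0.427) with all libraries and -0.29 without replicate 1.

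Of 12 tested genes of the PIP2 cycle, which rebuilds the substrate of phospholipase C, 1 rose and 1 fell (median -0.07), and 4 fell without D30 replicate 1. *rdgB*, the phosphatidylinositol transfer protein, rose from 1559, 1523 and 1513 CPM to 2209, 2207 and 2132 CPM (0.53 ± 0.08, adjusted p = 0.000825), with little spread at either age. *Cds*, the CDP-diacylglycerol synthase, fell (-0.33 ± 0.10, adjusted p = 0.0287) and kept its call in 2 of the 6 fits that left out 1 library. Among 8 tested genes of rhodopsin maturation and chromophore supply 1 passed, the chaperone calnexin *Cnx99A* (0.51 ± 0.14, adjusted p = 0.0235), which lost its call without any D60 library.

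**Figure D3:**
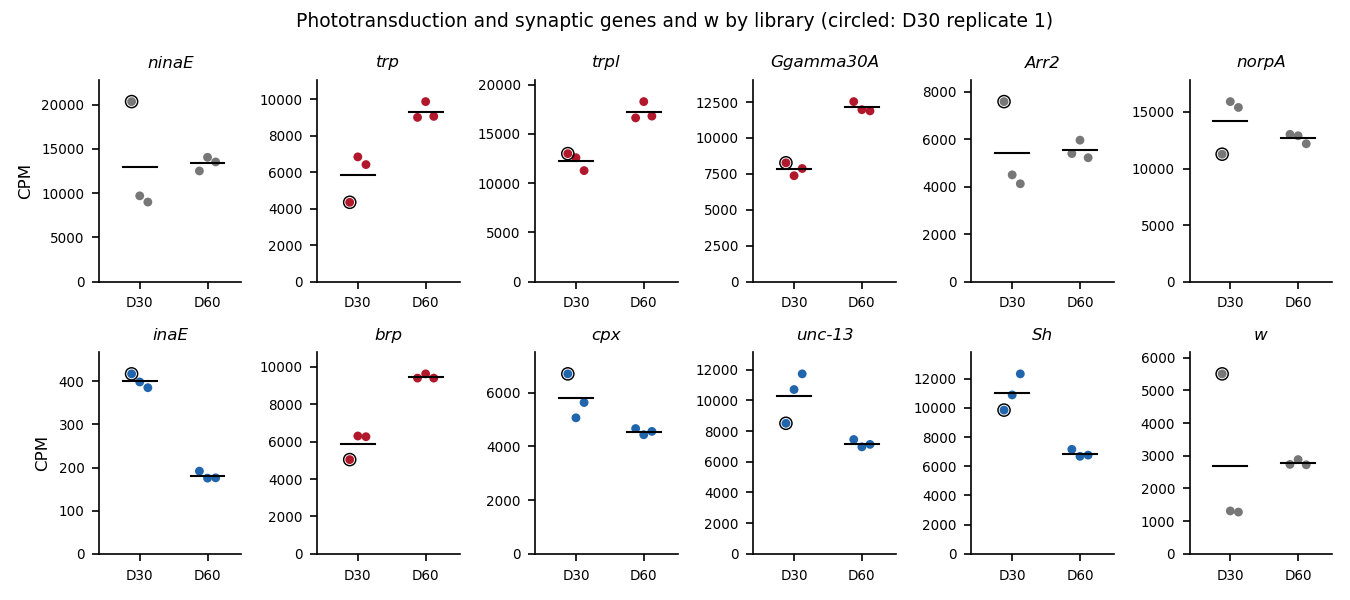
Level in CPM of 11 phototransduction, synaptic and channel genes and of *w* in each D30 and D60 library, with a bar at the mean of 3 libraries, D30 replicate 1 circled, genes called higher in red, lower in blue and the others in grey. *trp*, *trpl*, *Ggamma30A* and *brp* are higher in every D60 library, while *ninaE*, *Arr2* and *w* have their highest point in D30 replicate 1.

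Of 20 tested genes of the rhabdomere and cell junctions 3 rose and 4 fell (median -0.02, with 5 higher without D30 replicate 1 and 2 higher without any D60 library). The genes *Moe* (0.70 ± 0.16), *eys* (0.55 ± 0.11) and *crb* (0.37 ± 0.09) rose, of which Moesin links actin to the membrane, spacemaker fills the space between rhabdomeres and Crumbs marks the stalk membrane. *eys* went from 1124, 1518 and 1381 CPM to 1867, 2023 and 1933 CPM. *pyd*, *shg*, *cno* and *sdt* fell. *shg*, the E-cadherin, went from 552.6, 309.4 and 273.4 CPM to 126.5, 142.6 and 155.7 CPM (-1.40 ± 0.24, adjusted p = 0.00144), and *cno*, the fly afadin, from 1564, 1642 and 1580 CPM to 1001, 1082 and 1028 CPM (-0.61 ± 0.09). *sdt*, the partner of Crumbs, fell as well (-0.43 ± 0.12).

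Of 11 tested transcription factors of photoreceptor identity 1 rose and 5 fell, and the other 5 had negative changes that did not pass the test (median -0.43). *dve*, which acts in the repression of other rhodopsins in outer photoreceptors, fell from 449.1, 527.1 and 485.1 CPM to 251.4, 286.5 and 322.3 CPM (-0.75 ± 0.12, adjusted p = 0.000924). *so*, or sine oculis, fell by 0.86 and *gl*, or glass, by 0.45 on the log2 scale, and *toy* (-0.44) and *pros* (-0.43) fell as well. *oc*, which activates rhodopsin genes, was the 1 that rose, from 1269, 1673 and 1757 CPM to 2262, 2232 and 2301 CPM (0.55 ± 0.11). The count of falls was 6 without D30 replicate 2, 2 without D30 replicate 3, D60 replicate 1 or D60 replicate 2, and 1, *dve*, without D60 replicate 3.

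Photoreceptors recycle histamine through carcinine, and 3 of the 8 tested genes of this cycle passed, in both directions (median -0.08). *lovit*, the vesicular transporter of histamine, fell from 1448, 1320 and 1369 CPM to 656.1, 636.5 and 679.1 CPM (-1.05 ± 0.09, adjusted p = 1.16e-05), and *t* fell as given above. *CarT*, which takes carcinine back into the photoreceptor, rose from 463.5, 359.0 and 391.1 CPM to 608.5, 588.9 and 657.1 CPM (0.63 ± 0.12, adjusted p = 0.00264). *Hdc*, the enzyme that makes histamine, was at 324.9, 235.5 and 188.2 CPM and then 159.2, 175.6 and 179.1 CPM, a change of -0.52 ± 0.18 that did not pass the test (adjusted p = 0.0574).

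Of 30 tested genes of the synaptic vesicle cycle 3 rose and 7 fell, and 25 had a negative change (median -0.16; 4 and 11 without D30 replicate 1, 2 and 4 without D60 replicate 2). *brp*, the core protein of the active zone, rose from 5041, 6302 and 6264 CPM to 9397, 9624 and 9396 CPM (0.71 ± 0.10, adjusted p = 0.000319). Other proteins of the same release site fell: *unc-13*, which primes vesicles, from 8506, 10705 and 11726 CPM to 7450, 6971 and 7133 CPM (-0.51 ± 0.11), and *cac*, its calcium channel, from 3534, 3893 and 4243 CPM to 2736, 2667 and 2827 CPM (-0.49 ± 0.09). The calcium sensors *Syt1* (-0.46) and *Syt7* (-0.57), complexin *cpx* (-0.33), dynamin *shi* (-0.37) and *Sap47* (-0.47) fell too, and synaptojanin *Synj* (0.63) and the vesicle SNARE *nSyb* (0.36) rose. With an offset for gene length *unc-13* no longer passed (-0.26, adjusted p = 0.0539).

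Potassium channels changed in 8 of 16 tested genes, 4 each way (median -0.05). *Shab*, a delayed rectifier of photoreceptors, rose from 1013, 1183 and 1239 CPM to 1983, 1909 and 1937 CPM (0.78 ± 0.10, adjusted p = 0.000164), with *KCNQ* (0.55 ± 0.08), the sodium-gated *SLO2* (1.05 ± 0.18) and *Shawl*, which overlaps *Aldh* on the opposite strand and may share counts with it. *Sh*, or Shaker, the fast inactivating channel, fell from 9847, 10886 and 12329 CPM to 7160, 6680 and 6765 CPM (-0.67 ± 0.09, adjusted p = 0.000408). *eag* fell from 3026, 3794 and 3828 CPM to 1863, 1949 and 1784 CPM (-0.91 ± 0.10), and the calcium-gated *SK* (-0.71) and *sei* (-0.62) fell with it. The rises and falls of *Shab*, *SLO2*, *eag*, *SK* and *Sh* were called in all 6 fits that left out 1 library.

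Calcium channel and transport genes were called in 9 of 20 (4 higher, 5 lower, median -0.08, and 8 lower without D30 replicate 1). Besides *Rgk1* and *Calx*, the release channel *RyR* rose from 78.0, 113.3 and 70.6 CPM to 327.3, 382.9 and 338.9 CPM (2.0 ± 0.17, adjusted p = 8.64e-06) and the T-type channel *Ca-alpha1T* from 254.8, 322.1 and 307.3 CPM to 549.0, 530.8 and 522.1 CPM (0.87 ± 0.11). Among those that fell were *stol*, an accessory subunit of calcium channels, from 928.5, 622.6 and 741.0 CPM to 354.1, 356.5 and 338.9 CPM (-1.11 ± 0.14), and the pumps *SPoCk* (-0.64) and *PMCA* (-0.43), with *cac* and the kinase *CaMKII* (-0.39).

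Of 16 tested sodium channel and pump genes 1 rose and 4 fell (median -0.13; 3 rose without D30 replicate 1, and 2 fell without D60 replicate 3). The voltage-gated channel *para* fell from 224.6, 255.9 and 274.9 CPM to 151.8, 142.6 and 154.3 CPM (-0.74 ± 0.12, adjusted p = 0.00128), and its auxiliary subunit *Teh2* (-0.61) and the exchangers *Nhe2* (-0.80) and *Nckx30C* (-0.60) fell as well. *NaCP60E*, a second channel gene of this family, rose (0.49 ± 0.13, adjusted p = 0.0175), and lost its call without D30 replicate 2, D60 replicate 1 or D60 replicate 2. The innexin *Inx7*, with under 10 counts on average at D30, rose (1.16 ± 0.32, adjusted p = 0.0216), though not without D30 replicate 2 or any D60 library, and *shakB* fell among 3 tested. None of 19 tested neurotransmitter receptor genes rose and 3 fell (median -0.42, with 7 lower and 1 higher without D30 replicate 1), among them *Ekar*, a glutamate receptor of photoreceptors, from 431.6, 515.6 and 593.9 CPM to 258.9, 228.4 and 253.5 CPM (-1.04 ± 0.13, adjusted p = 0.000172). *nAChRalpha4*, an acetylcholine receptor subunit, was at 17.9, 11.9 and 26.2 CPM at D60 against 51.0, 50.9 and 72.0 CPM (-1.61 ± 0.30), and *pHCl-1*, a chloride channel, had a change of -0.57.

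Cell adhesion and axon guidance was the longest list, with 12 of 71 tested genes higher and 13 lower (median -0.03; 16 and 19 without D30 replicate 1). *Dscam1*, a cell recognition molecule with many isoforms, rose from 117.9, 183.3 and 211.7 CPM to 1114, 1153 and 1112 CPM (2.73 ± 0.16, adjusted p = 9.25e-07). The fasciclins *Fas3* (2.47 ± 0.21) and *Fas2* (2.15 ± 0.17) rose, and so did the protocadherins *ds* (2.76 ± 0.25) and *ft* (1.38 ± 0.14), which bind each other across cells in planar polarity. *Fas3* went from 27.1, 48.4 and 67.6 CPM to 264.8, 258.8 and 270.0 CPM.

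The largest falls among adhesion genes were smaller than the largest rises. N-cadherin, *CadN*, which guides photoreceptor axons, fell from 2483, 2422 and 2411 CPM to 1296, 1258 and 1187 CPM (-0.95 ± 0.09, adjusted p = 1.48e-05). The receptor phosphatase *Ptp4E* fell from 630.7, 696.4 and 629.2 CPM to 247.0, 270.7 and 253.5 CPM (-1.33 ± 0.10), *tei*, an adhesion molecule of the immunoglobulin family, by 1.30 and the guidance molecule *Sema1a* by 1.24 on the log2 scale. *ed* (-1.14), the guidance receptors *robo1* (-0.82) and *fra* (-0.82), and the synaptic adhesion genes *Nlg3* (-0.86) and *Nrx-1* (-0.56) fell as well.

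Changes in the axonal cytoskeleton were small: 4 of 28 tested genes rose, 5 fell and the median was -0.03 (6 and 7 without D30 replicate 1, 0 and 1 without D60 replicate 2, and 4 and 5 gave way to 6 and 1 with an offset for gene length). *shot*, the spectraplakin that ties actin to microtubules, rose from 12625, 13272 and 12235 CPM to 15633, 16433 and 15564 CPM (0.34 ± 0.08, and 0.61 with the offset). *tau* fell from 488.9, 597.1 and 617.5 CPM to 334.8, 330.1 and 370.6 CPM (-0.70 ± 0.12, adjusted p = 0.00113). *beta-Spec* (0.41), *Patronin* (0.40) and *hts* (0.29) rose, and the kinesin adaptor *milt* (-0.39), the microtubule protein *futsch* (-0.29) and *Tm1* (-0.27) fell. *cher*, the filamin, overlapped between ages, with 22.3 CPM in D30 replicate 1 and 17.9 to 38.6 CPM at D60 (-1.39 ± 0.46, adjusted p = 0.0482), and was called only in the fit without that library when 1 was left out.

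In cAMP signalling, 6 of 21 tested genes rose and 2 fell (median 0.08, and 5 fell without D30 replicate 1, 1 without D30 replicate 3 or any D60 library). Beside the cyclase *Ac78C*, 3 phosphodiesterases that break cyclic nucleotides down rose. They were *Pde8*, from 70.1, 101.9 and 95.6 CPM to 279.7, 310.3 and 272.8 CPM (1.69 ± 0.15, adjusted p = 1.16e-05), *Pde11* (1.03 ± 0.15) and *Pde1c* (0.84 ± 0.16), while a further one, *dnc*, or dunce, fell from 1048, 1193 and 1197 CPM to 690.4, 674.8 and 698.4 CPM (-0.72 ± 0.09). *Epac*, a cAMP-gated exchange factor (1.28), and the cyclase *Ac13E* (0.94) rose, and *Pka-C1*, the catalytic subunit of protein kinase A, fell (-0.36), with *Pka-C1* called in 1 of the 6 fits without 1 library.

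In insulin and TOR signalling 4 of 28 genes rose and 3 fell, which is close to the share of all genes called (median 0.02; 6 and 6 without D30 replicate 1, 2 and 2 without D30 replicate 2, D60 replicate 1 or D60 replicate 3). The insulin receptor *InR* fell from 138.6, 295.4 and 280.8 CPM to 110.1, 110.9 and 108.8 CPM (-1.11 ± 0.23, adjusted p = 0.00533). *SNF4Agamma*, a subunit of the energy sensor AMPK, rose from 1124, 1418 and 1472 CPM to 1967, 2121 and 2057 CPM (0.63 ± 0.11), with *rictor* (0.69), *Pi3K92E* (0.55) and *Pdk1* (0.41). *sgg*, the kinase GSK3, fell (-0.31) and lost its call with the length offset (-0.16, adjusted p = 0.265).

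Of 56 tested splicing factors and RNA-binding proteins 6 rose, 10 fell and 38 had a negative change (median -0.20; 6 and 15 without D30 replicate 1, 1 and 5 without D60 replicate 1). *pum*, the translational repressor Pumilio, fell from 1349, 1351 and 1270 CPM to 685.9, 674.8 and 662.6 CPM (-0.96 ± 0.09, adjusted p = 1.96e-05). The splicing regulators *hfp* (-0.70), *Sxl* (-0.45), *ps* (-0.45) and *mbl* (-0.39), *Syp* (-0.77), *glo* (-0.89), *qkr58E-1* (-0.65) and *orb2* (-0.36) fell with it, of which *mbl* went from 12771, 9568 and 11028 CPM to 8356, 8240 and 8614 CPM. *heph*, the fly polypyrimidine tract binding protein, rose from 183.2, 243.2 and 286.7 CPM to 398.7, 429.2 and 414.6 CPM (0.81 ± 0.14), and *Smg6* (0.59), *pAbp* (0.42), *Atx2* (0.40), *msi* (0.36) and *B52* (0.31) rose by less.

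Of 62 tested chromatin genes 2 rose and 7 fell (median -0.10; 4 and 10 without D30 replicate 1, 2 and 1 without D60 replicate 1, 2 and 2 without D60 replicate 2 or with the offset for gene length, and 1 and 2 without D60 replicate 3). *mle*, the helicase of dosage compensation, rose from 113.1, 140.1 and 129.4 CPM to 199.4, 194.1 and 187.3 CPM (0.61 ± 0.13, adjusted p = 0.005), and *esc*, of the Polycomb complex, rose by 0.60 but lies within *Pde1c*, which rose too. The histone methyltransferases *Set8* (-1.13 ± 0.27) and *G9a* (-0.55 ± 0.17), the demethylase *Kdm4B* (-0.72 ± 0.18) and the remodellers *tou* (-0.46), *Mi-2* (-0.41) and *kis* (-0.28) fell, with *mod(mdg4)* (-0.45). Of the Mediator and general transcription factor genes 3 of 19 rose and 3 fell (median -0.01; 1 rose without D30 replicate 2 or any D60 library), led by *Taf1*, the large subunit of TFIID, from 148.1, 192.3 and 183.8 CPM to 410.6, 418.6 and 352.7 CPM (1.18 ± 0.13), while the TFIID subunits *Taf3* (-0.73) and *Taf4* (-0.52) fell.

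Of 64 DNA repair genes 45 were not tested, and 5 of the 19 tested had under 10 counts on average at D30 and not at D60, so the list's counts (5 higher and 1 lower) are partly set by the filter and its direction is not read. *Ku80* and *Irbp*, the subunits of the Ku complex that binds the ends of double-strand breaks, are among these 5. Their direction was thus set by the filter and is not read. *Ku80* was at 6.37, 6.37 and 7.35 CPM and then 37.2, 33.0 and 31.7 CPM (2.33 ± 0.32). *Irbp*, or Ku70, was at 6.37, 1.27 and 13.2 CPM and then 23.8, 19.8 and 20.7 CPM (1.66 ± 0.50). The other genes called higher were *PolZ1*, the catalytic subunit of the bypass polymerase zeta (1.49 ± 0.25), *rad50* (1.28 ± 0.29) and *DNAlig3* (1.26 ± 0.29), and *spel1*, of mismatch repair, fell (-0.67 ± 0.21). *Ku80* and *Irbp* were below the count minimum set for named genes and were added after their values were seen.

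Of 43 replication genes 36 were not tested, and *Cdc6* and *Mcm3*, 2 of the 4 called higher, had under 10 counts on average at D30, so no direction is read for this list either. Besides *Cdc6*, the helicase subunit *Mcm3* rose from 1.59, 5.09 and 5.88 CPM to 35.7, 18.5 and 30.3 CPM (2.67 ± 0.46), *RPA1* by 1.31 ± 0.42 and the retinoblastoma gene *Rbf*, from 35.0, 43.3 and 29.4 CPM to 67.0, 77.9 and 73 CPM (1.02 ± 0.21). *RPA1* kept its call in 2 of the 6 fits without 1 library. *E2f1*, the transcription factor that Rbf holds back, fell (-0.57 ± 0.18, adjusted p = 0.041), and lost its call without any D60 library. In the piRNA and small RNA list, *tej* was joined by *tapas* (0.50) and the short interfering RNA effector *AGO2* (0.39), while *AGO1*, the microRNA effector, fell (-0.36), with 10 of 36 tested (median 0.01). *AGO2* was called in 1 and *AGO1* in 2 of the 6 fits without 1 library, and without D60 replicate 1 the list had 1 rise and no fall.

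The cytosolic chaperones and the proteasome had few calls. Of 30 tested chaperone genes 1 rose and 2 fell (median -0.08), and 0 of 15 proteasome genes passed (median -0.17, with 1 lower without D30 replicate 1), of which the one with the highest CPM, *Prosalpha3T*, had a change of -0.05. Without D30 replicate 1, 3 chaperones rose and 9 fell, and none passed without D30 replicate 3, D60 replicate 1 or D60 replicate 3. The members called were *CCT3*, of the chaperonin, *Hsp26* and *mrj*. The small heat shock gene *Hsp26* was at 41.4 CPM in D30 replicate 1, 166.8 and 191.1 CPM in the other D30 libraries and 31.2 to 51.0 CPM at D60 (-1.66 ± 0.43, adjusted p = 0.0163, and -2.07 without that library). The groups overlapped for this gene. *Hsp83* was at 735.1 to 890.3 CPM at D30 and 760.4 to 821.3 CPM at D60.

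In the list for stress of the endoplasmic reticulum 17 of 20 tested genes had a positive change, with 5 called higher and 1 lower (median 0.30; 8 and 1 without D30 replicate 1, 2 and 0 without D60 replicate 2). *Gp93* rose from 44.6, 49.7 and 55.9 CPM to 96.7, 128.1 and 93.7 CPM (1.10 ± 0.19, adjusted p = 0.00142). *Hsc70-3*, or BiP, rose from 133.8, 210.1 and 191.1 CPM to 255.9, 314.3 and 263.1 CPM (0.65 ± 0.16), and the segregase *TER94* (0.76) and the transcription factor *Xbp1* (0.64) rose with it, beside calnexin. *crc*, the fly ATF4, fell (-0.45 ± 0.14).

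Translation factors included 4 risers and 1 faller among 37 tested (median 0.25, and 0.12 with the length offset; 6 and 3 without D30 replicate 1). *eEF1alpha1* rose from 304.2, 300.5 and 297.0 CPM to 635.3, 566.5 and 677.8 CPM (1.07 ± 0.11, adjusted p = 3.15e-05), *eEF2* from 224.6, 222.8 and 164.7 CPM to 357.1, 394.8 and 409.1 CPM (0.94 ± 0.14), and *eEF1gamma* (0.93) and *eIF3d1* (0.76) rose. The mitochondrial elongation factor *mEFTu1*, with under 10 counts on average at D60, fell (-1.25 ± 0.38), though not without D60 replicate 2 or 3.

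Of 43 Rab, Vps and sorting nexin genes 2 rose and 3 fell (median 0.02; 3 and 6 without D30 replicate 1, 1 and 2 without D30 replicate 3 or any D60 library). *Snx1* of the retromer rose from 25.5, 28.0 and 61.7 CPM to 260.4, 258.8 and 292.0 CPM (2.83 ± 0.24, adjusted p = 9.43e-06), and *Rab7* of late endosomes fell from 108.3, 84.0 and 88.2 CPM to 37.2, 48.9 and 56.5 CPM (-0.95 ± 0.20). The exchange factor *Rab3-GEF* fell (-0.53) and *Rab3*, its synaptic target, rose (0.52, called in 1 of the 6 fits without 1 library). For autophagy and lysosome genes 4 of 31 rose and 2 fell (median 0.09; 6 and 5 without D30 replicate 1, 1 and 0 without D60 replicate 1, 1 and 1 without D60 replicate 3), with *Sap-r*, the saposin precursor, from 643.4, 776.6 and 723.3 CPM to 1265, 1315 and 1327 CPM (0.88 ± 0.10), the protease *CtsL1* (0.92) and the autophagy receptor *ref(2)P* (0.69) higher, and *Pink1* (-0.75) and *Atg17* (-0.45) lower. *Vha100-1* was the 1 vacuolar ATPase gene called of 13 (0.40), and it lost its call in 5 of the 6 fits without 1 library.

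Lipid genes rose in 8 of 26 tested and fell in 3 (median 0.21; 7 to 10 rose and 1 to 3 fell with 1 library left out, the fewest falls without D60 replicate 1 or 2). *FASN1*, the fatty acid synthase, rose from 592.5, 422.7 and 404.3 CPM to 1174, 1236 and 1127 CPM (1.33 ± 0.14, adjusted p = 5.03e-05). *SREBP*, the transcription factor that drives lipid synthesis genes, rose from 157.7, 179.5 and 194.1 CPM to 336.3, 348.6 and 356.8 CPM (0.98 ± 0.12), and acetyl-CoA carboxylase *ACC* (0.62), the acyl-CoA ligase *Acsl* (1.08), the glucosylceramide synthase *GlcT* (0.66) and the lipid droplet protein *Lsd-2* (0.73) rose as well. Both lipophorin receptors rose, *LpR2* from 15.9, 35.6 and 23.5 CPM to 78.9, 75.3 and 79.9 CPM (1.62 ± 0.25) and *LpR1* by 1.60 ± 0.31. The genes that fell were *whd*, the carnitine palmitoyltransferase that feeds fatty acids to mitochondria (-1.07 ± 0.26), the nuclear receptor *Hnf4*, which drives genes of fatty acid oxidation (-0.76 ± 0.17), and *Agpat1* (-0.75 ± 0.25). *Agpat1* kept its call in 1 of the 6 fits without 1 library, and lost it without D30 replicate 1.

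Central carbon metabolism showed 4 higher and 2 lower of 31 genes (median 0.12; 6 and 2 without D30 replicate 1, 1 and 2 without D60 replicate 1 or 2). *Ldh*, lactate dehydrogenase, rose from 6.37, 22.9 and 26.5 CPM to 67.0, 113.6 and 88.2 CPM (2.25 ± 0.34, adjusted p = 0.000685), *Hex-A*, hexokinase, by 0.74 and malic enzyme *Men* by 0.63, and *kdn*, the citrate synthase, fell from 146.5, 98.0 and 117.6 CPM to 67.0, 63.4 and 64.7 CPM (-0.87 ± 0.18). *Ogdh*, a dehydrogenase of the same cycle, fell by 0.53 on the log2 scale. Of 24 tested oxidative phosphorylation genes 3 rose and 0 fell (median -0.07, with 1 higher in each of the 5 fits without another library than D30 replicate 1), namely *COX7A* (1.45), *ND-MLRQ* (1.25) and *ND-AGGG* (1.05), of which the last had under 10 counts on average at D30. None of the 72 mitochondrial ribosomal protein genes had enough counts to be tested.

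In methyl group metabolism 7 of 20 genes were tested, of which *Gnmt* and *pug* had under 10 counts on average at D30, so no direction is read for the list. *Pcmt*, which repairs aged proteins with S-adenosylmethionine, rose from 49.4, 54.7 and 63.2 CPM to 178.5, 134.7 and 125.4 CPM (1.40 ± 0.18, adjusted p = 0.000255), *Gnmt*, which consumes S-adenosylmethionine, by 2.22 ± 0.35 and *pug*, of the folate cycle, by 1.97 ± 0.45. *Sam-S*, which makes S-adenosylmethionine, fell (-0.48 ± 0.13), and kept its call in 2 of the 6 fits without 1 library. *ple* went from 116.3, 174.4 and 166.1 CPM to 764.7, 788.3 and 865.1 CPM (2.41 ± 0.14, adjusted p = 9.25e-07), while *Ddc*, the next enzyme of dopamine synthesis, had a change of 0.03. Among 19 antioxidant genes 2 passed, *Aldh* and the peroxiredoxin *Prx2* (1.10 ± 0.35), which had under 10 counts on average at D30, with a median of 0.31 that was 0.15 with the length offset.

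Of 32 tested immune genes 5 rose and 2 fell (8 and 4 without D30 replicate 1, 4 and 1 without D60 replicate 1), and *Dro* and *Mtk*, 2 of the 5, had under 10 counts on average at D30. The receptor *PGRP-LC* of the Imd pathway rose from 27.1, 39.5 and 47.0 CPM to 84.8, 71.3 and 110.2 CPM (1.23 ± 0.24) and the Toll adaptor *Myd88* from 20.7, 20.4 and 22.1 CPM to 52.1, 59.4 and 45.5 CPM (1.32 ± 0.24). The receptor *Tl* itself fell from 194.3, 142.6 and 117.6 CPM to 72.9, 63.4 and 71.6 CPM (-1.11 ± 0.20, adjusted p = 0.00186), with the Toll pathway factor *Dif* (-0.46). Antimicrobial peptide genes were near the lowest level tested: *Dro* went from 0, 2.55 and 4.41 CPM to 32.7, 25.1 and 44.1 CPM, and *Mtk* from 7.96, 1.27 and 2.94 CPM to 25.3, 23.8 and 23.4 CPM.

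Nuclear pore and envelope genes rose in 5 of 27 and fell in 2 (median 0.16), a share close to the 23.6% of all genes called, and were called higher in 6 without D30 replicate 1 or 2 and in 2 without D60 replicate 1 or 2. *Nup98-96* rose from 66.9, 73.8 and 89.7 CPM to 190.4, 165.1 and 197.0 CPM (1.27 ± 0.15, adjusted p = 0.000133), with *Ntf-2* (0.81), *Nup358* (0.60), the importin *msk* (0.56) and the SUN protein *koi* (0.55). *Msp300*, a giant KASH protein, fell from 10745, 9014 and 8980 CPM to 6427, 6468 and 6567 CPM (-0.55 ± 0.09, adjusted p = 0.00142). The tag transgene carries the KASH part of this gene, so that its transcripts and those of the endogenous gene cannot be told apart in the counts, and the fall was -0.18 (adjusted p = 0.497) with the length offset.

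**Figure D4:**
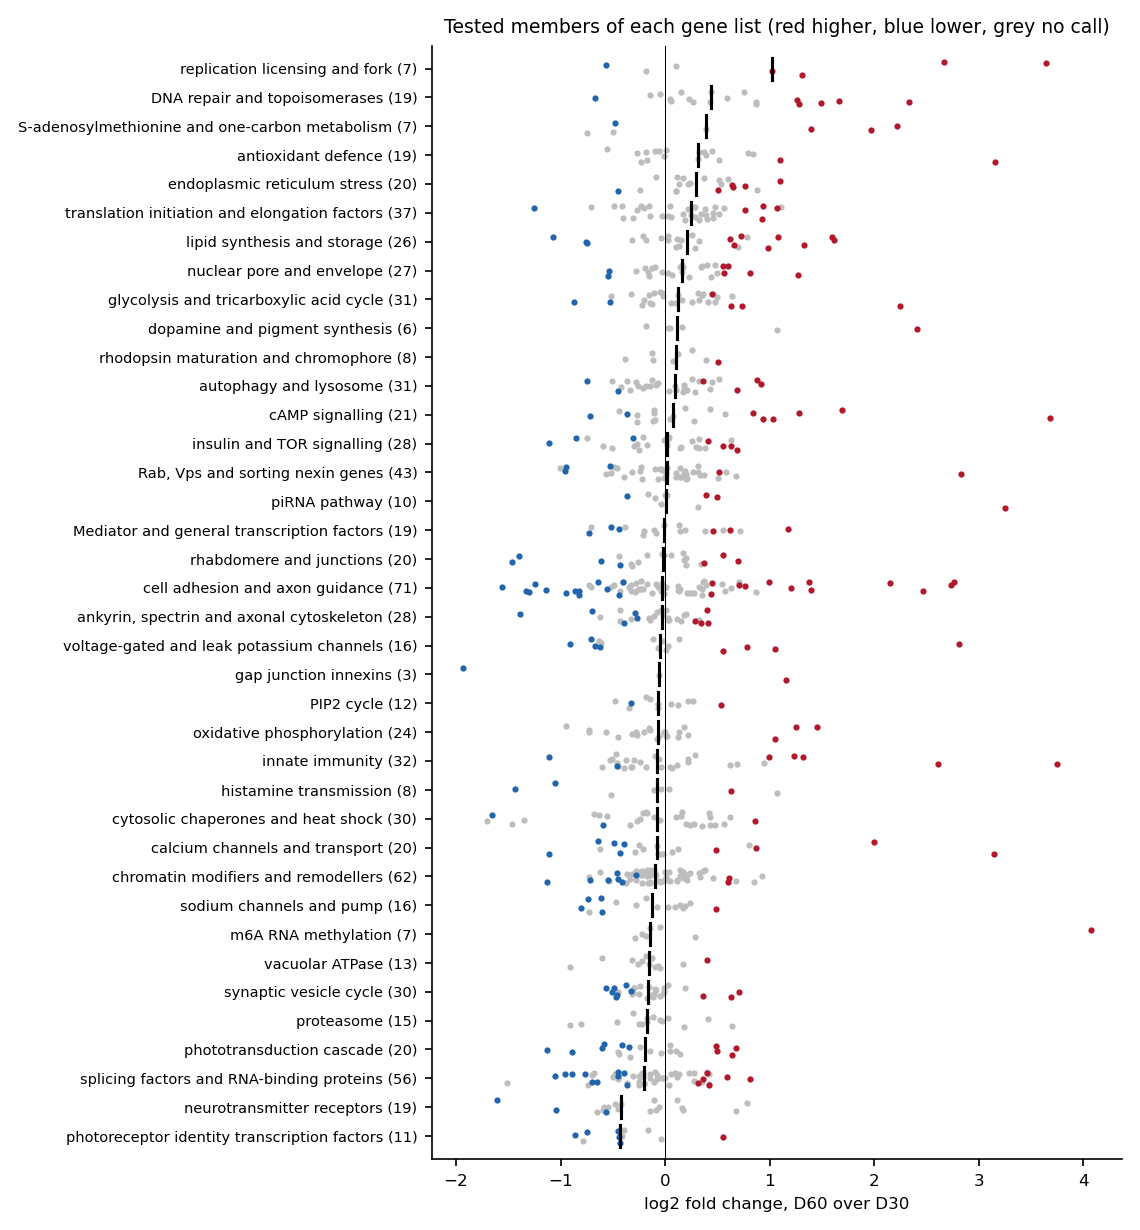
Log2 fold change of D60 over D30 for each tested member of 38 gene lists, ordered by the median (black bar), with members called higher in red, called lower in blue and the others in grey, and the number tested in parentheses. The medians run from -0.43 for the identity transcription factors to 1.02 for replication genes, which rest on 11 and 7 tested genes, the latter partly chosen by the count filter, and most lists hold both colours.

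The days between are described by group means, which at D40 can mix libraries that differ. For 352 of the 526 genes called higher and 342 of the 434 called lower, the D40 and D50 means both lay between those of D30 and D60. The median share of the final change that was reached by D40 was 15.1% for genes called higher and 33.2% for genes called lower, and by D50 it was 45.9% and 62.6%. These shares have the D30 and D60 means in common with the calls, so they describe the course and are not a test. *Mettl3* was at 20.0, 38.2 and 31.2 CPM at D40 and 98.5, 96.9 and 166.6 CPM at D50, and *mim* at 1377, 1380 and 1592 CPM and then 952.6, 801.6 and 1096 CPM. The larger steps of *Mettl3* thus lay after D40. *CG31286* was at 234.5 CPM in D40 replicate 1 and at 25.5 and 19.2 CPM in the other D40 libraries, and *Cks30A* at 95.5 CPM against 6.95 and 8.40 CPM, so that for both the D40 mean rests on replicate 1. Some falls had a like split, though *mim* did not. *Sema1a* was at 152.0 CPM in D40 replicate 1 against 319.8 and 303.6 CPM, and *eag* at 2049.5 CPM against 3663.2 and 3402.9 CPM. For both, replicate 1 alone was near the D60 level. The D40 shares therefore do not show that the change was gradual.

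Genes called lower had more exonic bases in total than the others. Their median exonic length was 5739 bases, against 3386 bases in genes called higher and 3249 bases in genes not called, and their median genomic span was 16734 bases against 5761 and 4988. The share of genes called lower climbed from 3.84% in the quintile of genes with the fewest exonic bases to 24.4% in that with the most, while the share called higher was 15.8% and 14% there. Level moved in the same way: 1.86% of the genes in the lowest quintile by mean CPM were called lower and 29.0% in the highest, and 11.5% and 17.2% were called higher. Longer and more abundant genes have more counts and smaller changes can pass the test, so these shares are not free of depth. Genes with under 2 kb of exonic bases took 8.53% to 8.73% of the counts at D60 (*Ank2* left out), 6.98% and 6.77% in D30 replicates 2 and 3, and 8.55% in D30 replicate 1. Another record of the annotation, transposon insertions and small RNAs included, overlapped 69.4% of the genes called lower, 53.4% of those called higher and 55.5% of the others.

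**Figure D5:**
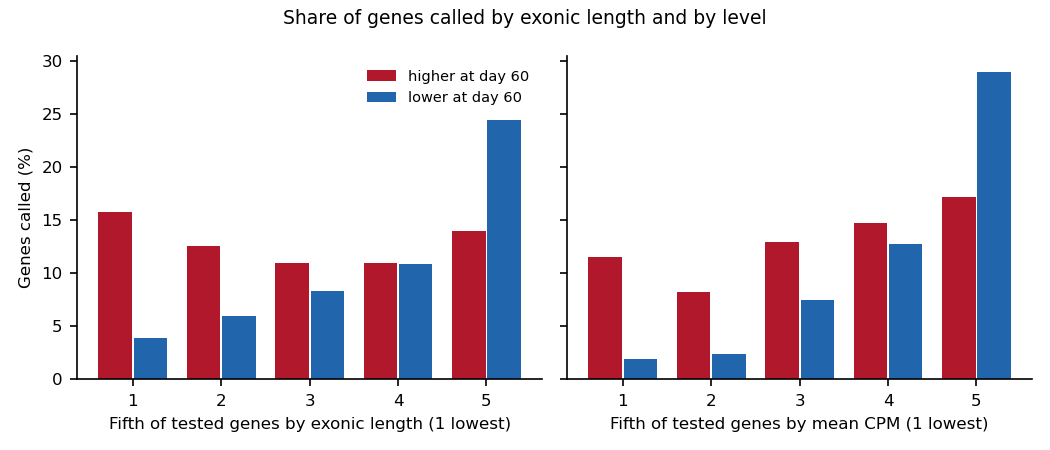
Share of tested genes called higher (red) and lower (blue) at D60, in percent, in quintiles of the genes by exonic length (left) and by mean CPM (right). The blue bars climb from 3.84% to 24.4% by length and from 1.86% to 29.0% by level, while the red bars stay between 8.17% and 17.2%.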

How the data were processed

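The authors deposited raw read counts per gene, with no normalization, and a separate table of the other groups was not used here. The submitters' processing notes name Trimmomatic, STAR, SAMtools and DESeq2 and the dm6 (BDGP6) genome, and the study's methods mention raw counts from STAR's gene counting for a separate step. The strand setting, annotation release and handling of PCR duplicates are not given in the sources used here. Libraries were made with the Ovation SoLo kit from nuclear RNA. All 12 count columns of D30 to D60 were matched to labelled samples.

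Of 13929 gene identifiers, 13866 were matched to the Ensembl annotation (release 115) for symbols, positions and lengths. D30 and D60 counts were compared in edgeR (4.0.16, under R 4.3.3) by its quasi-likelihood test (TMM normalization, expression filter with a minimum count of 10 and minimum total of 15, no covariate, two-sided, Benjamini-Hochberg adjustment over all genes tested, threshold 0.05). Standard errors were computed as |log2 fold change| over √F. TMM factors for CPM came from all 12 libraries of the table. Depth, 629634 to 803477 counts per library, limited the test to genes above about 10 counts. The alternatives were DESeq2 (version 1.42.0), RLE factors, library size alone, no filter, a stricter filter (10 counts in each library), a minimum fold of 1.5, replicate number as block, an offset for exonic length (lowess, span 0.3), both together, a fit of all 12 libraries, each library left out in turn, and both replicate 1 libraries left out. The procedure was tested on simulated counts. A planned description of promoter motifs was not made here, and some list members are not reported here.

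Named genes were the 12 largest rises and 12 largest falls among called genes with a mean of at least 50 counts and no overlap between ages, and up to 3 called members in each direction of each of 39 lists with a mean of at least 20 counts, or, where a list had none, the one with the highest CPM. Other members are named as part of a list's count, and *ninaE*, *Arr2*, *inaD*, *norpA*, *Hdc*, *Hsp83*, *w* and *apolpp* as checks, all after their values were seen. The members and lists were chosen with earlier results of these data known. Symbols that named other genes (*dbr*, *AdoR*) were taken out of 2 lists after the data were seen.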

Additional observations from a re-analysis of the deposited data

How the results depend on the processing

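Of the genes called, 670 of 960 were called by DESeq2 (680 calls), 960 with RLE factors (963 calls), 914 with library size alone (932), 840 with the length offset (913) and 873 with no filter (1188 calls of 11404 tested), each in the same direction. Requiring more than a 1.5-fold change left 720 genes, 451 higher and 269 lower. Leaving out 1 library gave 612 to 1492 calls (363 to 778 higher and 239 to 714 lower). Of the 161 named genes, 1 lost its call without D30 replicate 1, 23 and 26 without D30 replicates 2 and 3, and 50, 45 and 41 without D60 replicates 1, 2 and 3, and none reversed. Replicate numbers are shared between ages. D30 and D60 libraries of the same number did not deviate together (correlations of -0.0271, 0.0089 and 0.0088), but D40 and D50 were not part of that check. In replicate 1 at D30, D40 and D50, *Ank2* took 4.5%, 6.1% and 6.18% of the counts. It took 8.17% to 10.5% in replicates 2 and 3 of these ages, and 7.55% to 7.85% at D60. A replicate number may thus carry structure at the younger ages, which was not tested. The replicate block gave 914 calls (503 higher and 411 lower), 841 with the length offset as well. At 629634 to 803477 counts per library, genes at a few CPM could not be tested, and 3 pools per age give little power for small changes.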

Other observations

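Of the 960 genes called, 709 were in none of the lists. Several of these had sizeable levels, and were chosen after their values were seen. *hzg* went from 1327, 2856 and 2857 CPM to 7328, 7792 and 7143 CPM (1.68 ± 0.22, adjusted p = 0.000269 by edgeR), the largest change among the 10 genes called higher with the most counts. *CG17005* went from 324.9, 220.3 and 238.2 CPM to 1242, 1277 and 1247 CPM (2.28 ± 0.14), *Evi5*, of a family that acts on Rab proteins, from 124.2, 193.5 and 180.8 CPM to 700.8, 653.6 and 650.2 CPM (2.01 ± 0.15), the exchange factor *RhoGEF64C* from 33.4, 35.6 and 19.1 CPM to 221.7, 250.9 and 221.8 CPM (2.98 ± 0.19), and *Arc1*, which forms virus-like capsids, from 94.0, 108.2 and 79.4 CPM to 334.8, 293.1 and 371.9 CPM (1.84 ± 0.15). In all 5 the groups were apart. Among falls, the kinase *Doa* went from 5792, 5978 and 6391 CPM to 3888, 3889 and 3981 CPM (-0.61 ± 0.08), and *lqf*, the endocytic epsin, from 5815, 3769 and 3778 CPM to 2540, 2505 and 2396 CPM (-0.83 ± 0.15).

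Some genes were close to 0 at D30, so that they entered the test through D60 and their direction was set by the filter. *CG10651* had no count in any D30 library and 50.6, 34.3 and 35.8 CPM at D60, which is at least 28.1-fold higher when 3 counts over the D30 group are taken as the limit. *CG31459* went from 0, 2.55 and 2.94 CPM to 74.4, 100.4 and 66.1 CPM, and *CG11898* from 0, 1.27 and 1.47 CPM to 34.2, 42.3 and 38.6 CPM. *Tig*, or tiggrin, an extracellular matrix protein, was at 6.37 CPM in D30 replicate 1 and at 177.0 and 135.3 CPM in the other D30 libraries, against 10.4 to 25.1 CPM at D60 (-2.39 ± 0.72, adjusted p = 0.0331), so that its groups overlapped.

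*ry*, or rosy, whose wild-type form is the marker of the driver transgene in flies that carry the ry[506] allele, was at 11.1 to 111.7 CPM at D30, lowest in D30 replicate 1, and at 358.6, 248.2 and 261.7 CPM at D60 (2.16 ± 0.41, adjusted p = 0.00267). Counts from the transgene and from the endogenous locus cannot be told apart for *ry*, nor for *w*.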
